A study of Mus musculus with 6 samples.

Results

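The genes described here encode the proximal signalling machinery of the T cell receptor, the proteins that carry a receptor signal from the cell surface to calcium, Ras and NF-kappa B. They were taken from a list of names by role: 33 genes were listed, all 33 were found by symbol in the table of 47643 genes, and all 33 passed the filter on low counts that kept 12760 genes for testing. They were read in NKT1 cells, the T-bet-expressing subset of invariant natural killer T (iNKT) cells, which are T cells with a nearly fixed receptor for lipids presented by CD1d. The cells were taken from thymus of WT BALB/c mice and sorted by flow cytometry into a CD4-positive group (3 libraries) and a CD4-negative group (3 libraries), so both groups share strain, genotype, tissue and subset, and no treatment is named. The labels give no age or sex, and do not say whether a replicate was a separate animal or a pool, so a p-value here reflects only how these libraries spread, and part of that spread can be technical.

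When the receptor binds its ligand, the kinase Lck phosphorylates the tyrosine motifs of the CD3 and zeta chains, Zap70 docks there, and Zap70 phosphorylates the scaffolds Lat and Lcp2 (SLP-76). On these scaffolds phospholipase C-gamma 1, exchange factors for small GTPases and adaptors assemble. Calcium then activates calcineurin and the NFAT factors, and protein kinase C-theta activates the Bcl10 and Malt1 complex. Phosphatases, Csk and inhibitory adaptors set the threshold of the cascade. iNKT cells are selected in the thymus by strong receptor signals, and the subsets that lack or carry CD4 share the receptor.

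Library totals were 40480463 to 53145848 estimated counts, so that 1 count was worth 0.0185 to 0.0261 CPM (estimated counts scaled to the library total after its TMM adjustment). Cd4 checks the labels: it stood at 401 to 508 CPM in CD4-positive and 10.9 to 41.2 CPM in CD4-negative libraries. Zbtb16 encodes the factor PLZF of the whole iNKT lineage. It lay between 70.2 and 151 CPM in CD4-positive and between 60.0 and 63.7 CPM in CD4-negative libraries, without overlap. Tbx21, which encodes the NKT1 factor T-bet, lay between 297 and 639 CPM with overlapping groups. The T cell marker Thy1 split the other way, at 784 to 840 CPM in CD4-positive and 1047 to 1201 CPM in CD4-negative libraries. The groups overlapped in the other listed NKT1 and T cell markers, Il2rb, Klrb1c, Cd27 and Trbc2. Summed markers of B cells reached at most 3.01 CPM, with Pax5 at 0, and those of myeloid cells at most 2.14 CPM. The 7 markers of NK and innate lymphoid cells summed to 76.9 to 95.4 CPM in CD4-positive and 189 to 201 CPM in CD4-negative libraries. The 3 markers of regulatory T cells summed to 29.1 to 44.2 and 16.5 to 25.9 CPM, nearly all from Il2ra, since Foxp3 did not exceed 1.20 CPM. The share of mitochondrial counts was 1.35% in CD4-positive replicate 1 and 1.33% in CD4-negative replicate 3, against 3.51% to 5.19% in the other 4 libraries. CD4-negative replicate 3 also had counts for the fewest genes, 13787 against 15293 to 16267. Fewer cells of a type and less RNA per cell cannot be told apart in such bulk libraries.

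None of the 33 genes differed between CD4-positive and CD4-negative NKT1 cells at an adjusted p under 0.05 by edgeR's quasi-likelihood test, where 0.212% of all 12760 genes did. Only Cd5 had an unadjusted p under 0.05, beside 4.44% of all genes. DESeq2 and limma-voom also called none of the 33. The log2 differences, taken as CD4-positive minus CD4-negative, lay between -0.44 (Cd2) and 0.56 (Cd5), with a median of -0.02, where the median of all genes was -0.01. Of the 33 genes 14 had a difference above 0, where 48.9% of all genes did, and 19 had a difference below 0. The groups did not overlap in 3 genes, Cd5 and Cd6 (higher in CD4-positive, as 4.84% of all genes were) and Sla2 (lower, as 4.57% were), where 9.41% of all genes had groups that did not overlap. These counts are near the background.

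The precision of each estimate says how large a difference could have been missed. The 95% interval of the difference lay within 2-fold in both directions for 26 of the 33 genes, against 65.1% of all tested genes. It lay within 1.5-fold for 17 of the 33, against 3735 of all 12760. Among genes with a mean of at least 10 CPM, which leaves out Themis, it lay within 2-fold for 26 of 32 (81.3%), against 88.3% of all such genes. Within 1.5-fold it lay for 17 of these 32, against 3562 of all 8028 such genes. All 4 kinases and all 6 phosphatases were among the 26. The 7 genes whose interval reached past 2-fold were Cd3d, Cd2, Themis, Pag1, Sos1, Rasgrp1 and Nfatc1. For these a 2-fold difference in at least 1 direction is not excluded at this replication.

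**Figure D1:**
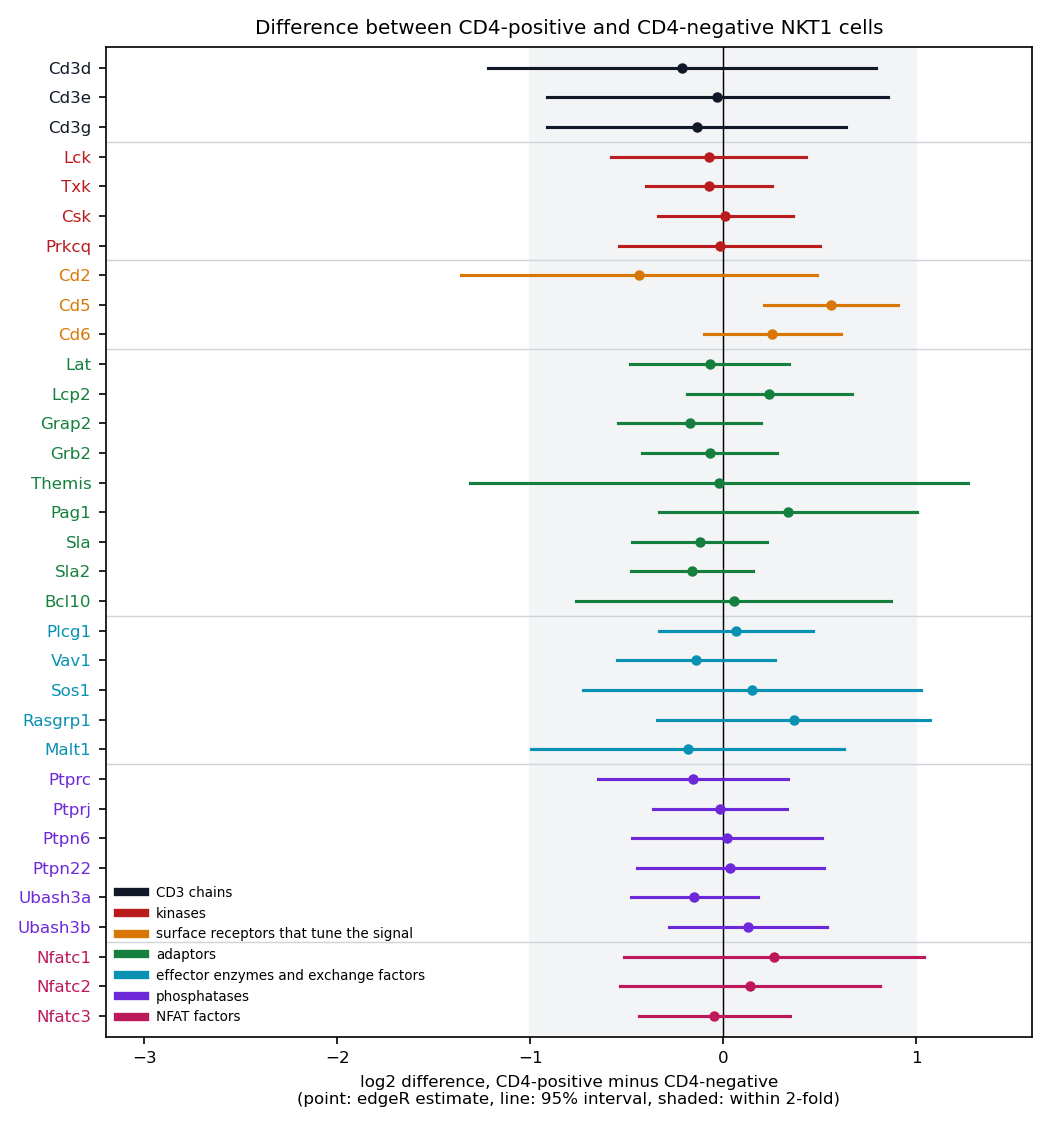
Log2 difference of each of the 33 genes between CD4-positive and CD4-negative NKT1 cells (x axis; points are edgeR estimates, lines 95% intervals, n = 3 libraries per group), with the zone within 2-fold shaded. Estimates lie between -0.44 and 0.56, and 26 of 33 intervals stay inside the shaded zone.

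Levels of different genes were compared per kilobase of transcript, using the principal transcript of each gene. Cd3g had the highest level, with a mean of 1226 CPM per kilobase over the 6 libraries, followed by the adhesion receptor Cd2 (567), Lck (475), the phosphatase Ptpn6 (472) and Cd3d (415). The order rests on the transcript length. With merged exon lengths these 5 genes still led but were nearly level, with Cd3g at 384, Cd2 at 375, Ptpn6 at 374, Cd3d at 369 and Lck at 355 CPM per kilobase. The principal transcript of Cd3d has 1617 bases, and which transcript the cells use was not examined, so its level and its ratios to the other chains depend on that length. The lowest levels were those of Themis (0.963 CPM per kilobase), the Ras exchange factor Sos1 (3.40) and the phosphatase Ubash3b (5.91). These genes also held the last places with merged exon lengths. On the percentile scale over all tested genes with a length, Cd3g stood at 99.3 and Themis at 20.5.

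**Figure D2:**
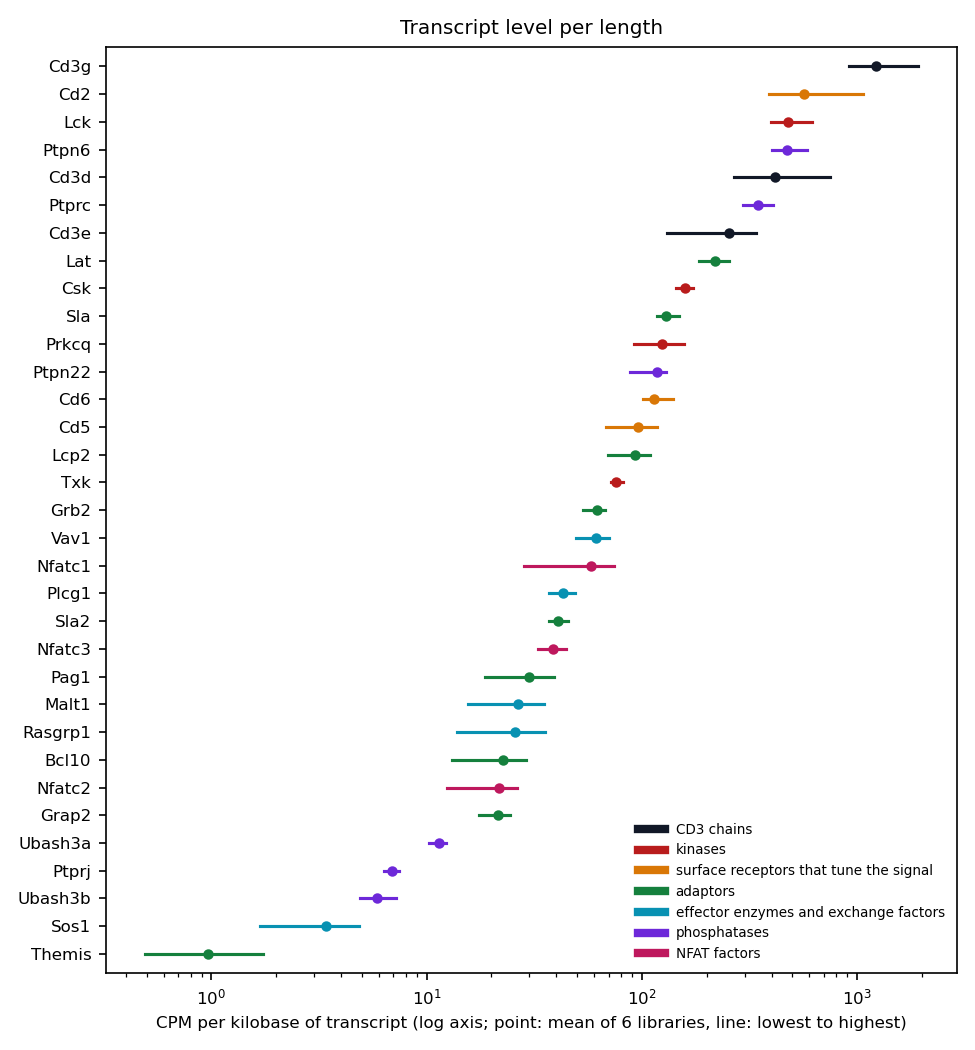
Level of each gene as CPM per kilobase of its principal transcript on a log axis (points are means of 6 libraries, lines run from the lowest to the highest library, colours give the role). Levels span from 0.963 for Themis to 1226 for Cd3g.

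The CD3 chains Cd3g, Cd3d and Cd3e form the signalling dimers of the receptor complex, and their genes lie side by side on chromosome 9 (GRCm38). Cd3g (44969572 to 44980431, minus strand) and Cd3d (44981786 to 44987339, plus strand) are divided by only 1354 bases and are transcribed away from each other, and Cd3e (44998740 to 45009627, minus strand) lies past Cd3d. The 250 bases before the RefSeq start of each gene (build GRCm38.p6) are shown because Cd3g and Cd3d varied together between libraries and Cd3e varied the other way. They cover chr9:44980432-44980681 (minus strand) for Cd3g, chr9:44981536-44981785 (plus strand) for Cd3d and chr9:45009612-45009861 (minus strand) for Cd3e. The gene coordinates are those of GENCODE, by which Cd3e reaches to 45009627. The end of its window, with the last marked TTCC, therefore lies within the GENCODE gene. Capitals mark GGAA or its complement TTCC, the core that ETS factors bind.
Cd3g: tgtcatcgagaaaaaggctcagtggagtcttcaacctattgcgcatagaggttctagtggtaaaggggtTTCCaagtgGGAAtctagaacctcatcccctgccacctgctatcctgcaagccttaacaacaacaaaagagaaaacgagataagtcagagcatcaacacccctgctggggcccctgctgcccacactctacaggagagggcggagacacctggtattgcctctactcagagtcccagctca
Cd3d: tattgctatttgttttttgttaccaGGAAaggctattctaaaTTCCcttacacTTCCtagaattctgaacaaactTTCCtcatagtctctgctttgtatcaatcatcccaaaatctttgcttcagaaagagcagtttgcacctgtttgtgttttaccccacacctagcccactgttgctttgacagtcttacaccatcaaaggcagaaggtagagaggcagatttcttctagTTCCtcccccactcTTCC
Cd3e: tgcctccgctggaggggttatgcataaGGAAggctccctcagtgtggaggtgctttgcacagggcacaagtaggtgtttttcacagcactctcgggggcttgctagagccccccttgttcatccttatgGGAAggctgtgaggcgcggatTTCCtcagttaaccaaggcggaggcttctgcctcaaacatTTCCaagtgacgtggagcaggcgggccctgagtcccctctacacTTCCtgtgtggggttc
Searched on both strands, GGAA occurred 2, 6 and 5 times in the Cd3g, Cd3d and Cd3e windows, but 93.4% of the 32851 promoter windows of the RefSeq table hold it at least once. The E box pattern CANNTG occurred 3, 1 and 1 times (66.2% of all windows hold it), and TGTGGT (14.0%) and TGATAA (7.94%) in none of the 3. In Cd3g and in Cd3e 1 GGAA match shared a base with an E box match, as the run TTCCAAGTG, which 114 of all windows hold (0.347%). That run was looked for after the windows were read. The matches are a description of the letters, and no binding was measured. Their part in the variation between libraries was not tested.

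Cd3g stood at 1534, 965 and 1083 CPM in CD4-positive replicates 1, 2 and 3 and at 1040.3, 935 and 1966 CPM in CD4-negative replicates 1, 2 and 3. Cd3d stood at 867, 434 and 561 CPM and at 511, 444 and 1205 CPM in the same order. In both genes CD4-positive replicate 1 and CD4-negative replicate 3 were the highest libraries, and the groups overlapped. Cd3e went the other way, with 260, 474 and 368 CPM in CD4-positive and 443, 493 and 190.2 CPM in CD4-negative libraries, the same libraries being the lowest. The differences between the groups were -0.14 (SE 0.33) for Cd3g, -0.21 (SE 0.43) for Cd3d and -0.03 (SE 0.38) for Cd3e. Without CD4-negative replicate 3 the differences of Cd3g and Cd3d turned to 0.28 and 0.38, with adjusted p = 0.998 by edgeR for both.

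The balance of the chains differed widely between libraries of the same group, and the groups overlapped. Per kilobase, Cd3g exceeded Cd3e by 8.43 times in CD4-positive replicate 1 and 14.8 times in CD4-negative replicate 3, and by 2.71 to 4.21 times in the other 4 libraries. The same ratio of Cd3d to Cd3e was 3.02 and 5.73 in these libraries and 0.813 to 1.38 in the others. The ratio of Cd3g to Cd3d stayed between 2.58 and 3.51 in all 6. Another choice of transcript length would scale each ratio by the same factor in every library. The libraries with the high ratios are those with the low mitochondrial share given above, whose part in the ratios was not tested.

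**Figure D3:**
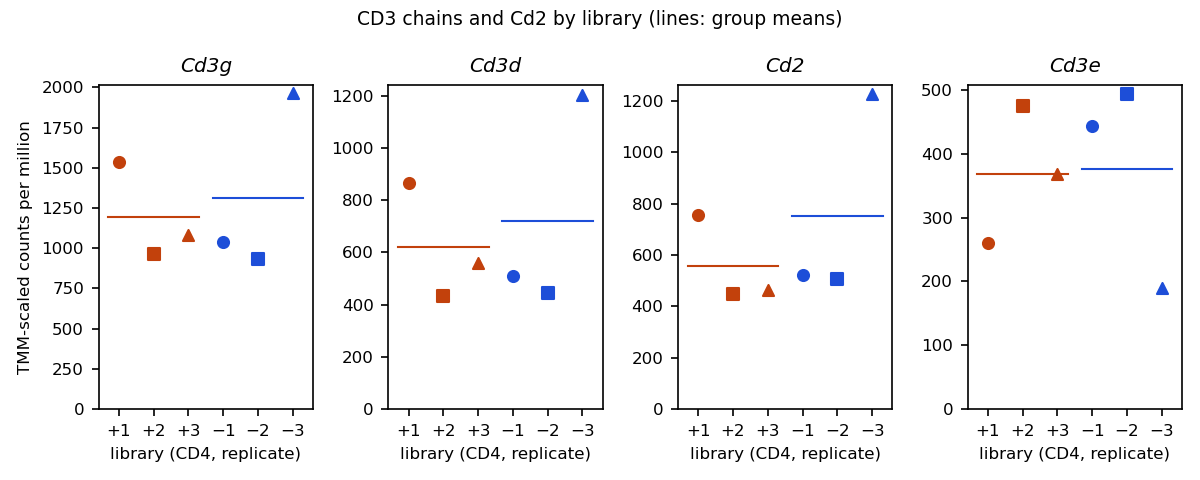
TMM-scaled CPM of Cd3g, Cd3d, Cd2 and Cd3e in each library (x axis: CD4-positive replicates +1 to +3 in orange, CD4-negative replicates −1 to −3 in blue; lines are group means, n = 3). CD4-positive replicate 1 and CD4-negative replicate 3 are the highest libraries for Cd3g, Cd3d and Cd2 and the lowest for Cd3e.

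Among the kinases, Lck, the Src-family kinase that starts the cascade, stood at 1049, 871 and 1115.5 CPM in CD4-positive and 931, 917 and 1349 CPM in CD4-negative libraries, for a log2 difference of -0.07 (SE 0.22). Txk, a Tec-family kinase that acts on phospholipase C-gamma 1, had the lowest coefficient of variation of the 33 genes over the libraries (5.52%), between 167.5 and 192 CPM. Csk, which restrains Lck by phosphorylating its tail, lay between 394 and 475 CPM. The 95% intervals of the log2 difference were -0.40 to 0.25 for Txk and -0.34 to 0.36 for Csk. Prkcq, protein kinase C-theta, ranged from 331 to 563 CPM, with both ends within the CD4-positive group.

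Cd5, Cd6 and Cd2 are surface receptors that tune receptor signals. Cd5, a scavenger-type receptor that dampens them and serves as a gauge of their strength in thymocytes, stood at 232, 243 and 232 CPM in CD4-positive and 168, 172 and 141 CPM in CD4-negative libraries. Every CD4-positive library was above every CD4-negative library, by 1.47-fold in the fit (log2 0.56, SE 0.15, 95% interval 0.21 to 0.91). This did not pass over all genes by edgeR's test (adjusted p = 0.448), ranking 182 by p among the 12760 genes. The difference was 0.48 to 0.62 under all 17 alternatives, with adjusted p between 0.0620 and 1. Replicate 3 of each group is named by another scheme, and with the naming in the fit the difference was 0.56 (SE 0.13, adjusted p = 0.328 by edgeR). The NK, regulatory T cell and B cell marker sums given above also split by group, as did Zbtb16 and Thy1. The NK sum split through Ncr1, Eomes and Klre1. Klri2 and Kit overlapped between the groups, and Klra8 and Klra4 were at most 0.0215 CPM. The regulatory T cell sum split through Il2ra, while Foxp3 and Ctla4 overlapped between the groups. The part of these sums and genes in the Cd5 difference was not tested.

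The window before the RefSeq start of Cd5 (chr19:10738975-10739224, minus strand, GRCm38.p6) is shown because Cd5 had the smallest p of the 33 genes. By GENCODE the gene reaches to 10739002, so the end of the window lies within it. The window held 4 GGAA matches, in capitals as TTCC or GGAA, and 2 CANNTG matches that share no base with them.
Cd5: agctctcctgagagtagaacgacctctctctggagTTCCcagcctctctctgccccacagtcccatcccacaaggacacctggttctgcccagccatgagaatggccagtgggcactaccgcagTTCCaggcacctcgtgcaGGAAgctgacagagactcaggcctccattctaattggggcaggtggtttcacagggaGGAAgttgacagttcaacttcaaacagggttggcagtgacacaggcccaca

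Cd6, a relative of Cd5 encoded beside it on chromosome 19, stood at 421, 363 and 347 CPM in CD4-positive and 307, 309 and 333 CPM in CD4-negative libraries. Its groups did not overlap either, and the difference did not pass the test (log2 0.25, SE 0.15, adjusted p = 0.99999 by edgeR). Cd2, the receptor for CD48, followed Cd3d rather than its surface neighbours: it stood at 755, 449.6 and 462 CPM and at 521, 508 and 1226 CPM. Its log2 difference of -0.44 (SE 0.39) was the lowest of the 33, and without CD4-negative replicate 3 it was 0.12 (SE 0.25).

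Lat and Lcp2, the scaffolds on which the cascade assembles, had log2 differences of -0.07 (SE 0.18) and 0.24 (SE 0.18). Lat lay between 227 and 315 CPM and Lcp2 between 255 and 397 CPM. Of the adaptors that bind them, Grap2 (Gads), which joins Lcp2 to Lat, lay between 95.7 and 133 CPM, and Grb2, which brings Sos1 to Lat, between 144 and 182 CPM. Per kilobase Grb2 stood at 61.7 and Grap2 at 21.5 CPM. The groups overlapped in each of these 4 genes.

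The inhibitory adaptors Sla and Sla2, which target receptor components for degradation, had higher means in CD4-negative cells without passing the test. Sla2 stood at 119, 110.3 and 114 CPM in CD4-positive and 124, 134 and 126 CPM in CD4-negative libraries. Its groups did not overlap, with a log2 difference of -0.16 (SE 0.14, adjusted p = 0.99999 by edgeR), and its counts were fractional in 6 of 6 libraries, so that part of its reads was shared with other genes. Sla had overlapping groups and a difference of -0.12 (SE 0.15). Per kilobase of the principal transcript Sla stood at 129 and Sla2 at 40.8 CPM, but with merged exon lengths the values were 41.5 and 39.1. Pag1, the membrane anchor of Csk, ranged from 154 to 323 CPM (log2 0.33, SE 0.29). Bcl10, the adaptor that activates Malt1, stood at 29.1, 49.7 and 56.7 CPM and at 54.4, 50.6 and 25.5 CPM, with CD4-positive replicate 1 and CD4-negative replicate 3 again apart from the rest.

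Themis, an adaptor best known for its need in thymocyte selection, was the lowest of the 33 genes. It stood at 3.19, 2.49 and 8.87 CPM in CD4-positive and 6.22, 2.54 and 6.06 CPM in CD4-negative ones (log2 -0.02, SE 0.55). The 7 markers of immature thymocytes summed to 49.3, 18.8 and 112 CPM and to 55.8, 20.8 and 139 CPM in the same libraries. Both were lowest in the replicate 2 libraries, and their relation was not tested. Rag1 alone was at 44.8 CPM in CD4-positive replicate 3 and at 2.13 to 15.6 CPM elsewhere. Cd8b1 stood at 38.3, 11.7 and 36.7 CPM in CD4-positive and 38.9, 14.9 and 83.7 CPM in CD4-negative libraries. It made up most of the sum in every library but CD4-positive replicate 3.

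The effector enzymes are those that turn the assembled scaffold into second messengers and GTPase signals. Plcg1, which makes inositol trisphosphate and diacylglycerol, lay between 189 and 248 CPM (log2 0.07, SE 0.17). Vav1, the exchange factor for Rac, lay between 146 and 208 CPM (log2 -0.14, SE 0.18). Both had overlapping groups and intervals within 2-fold.

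The other 3 varied more. Rasgrp1, the diacylglycerol-driven activator of Ras, stood at 111, 185 and 157 CPM in CD4-positive and 141, 139 and 72.3 CPM in CD4-negative ones (log2 0.36, SE 0.30). Malt1, the paracaspase of the NF-kappa B arm, stood at 99.98, 175 and 124 CPM and at 184, 186 and 83.0 CPM (log2 -0.19, SE 0.35). Sos1 ranged from 14.1 to 40.7 CPM (log2 0.15, SE 0.37). In each of these genes CD4-positive replicate 1 was the lowest library of its group and CD4-negative replicate 3 the lowest of all 6.

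The 6 phosphatases had a median coefficient of variation over the libraries of 14.1%, against 29.0% for the 5 effector enzymes and exchange factors, Plcg1 and Vav1 included. Ptprc (CD45), which removes the inhibitory phosphate from Lck, stood at 1389.8, 1844 and 1395 CPM in CD4-positive and 1847.5, 1906 and 1404 CPM in CD4-negative libraries, with a log2 difference of -0.16 (SE 0.21). Ptpn6 (SHP-1) stood at 1299, 969 and 895 CPM and at 954, 956 and 1212 CPM (log2 0.02, SE 0.21), and its counts were fractional in 6 of 6 libraries. Ptpn22, the partner of Csk, lay between 241 and 356 CPM, and the receptor phosphatase Ptprj between 48.1 and 56.8 CPM. Ubash3a and Ubash3b (Sts-2 and Sts-1), which act on Zap70 and its relatives, had differences of -0.15 (SE 0.14) and 0.13 (SE 0.18). Per kilobase Ubash3a (11.4 CPM) was above Ubash3b (5.91 CPM), with ranges over libraries of 10.2 to 12.4 and 4.89 to 7.18 that did not overlap.

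The NFAT factors, which calcineurin sends to the nucleus, were all expressed. Per kilobase Nfatc1 had a mean of 57.7 CPM (28.2 to 73.8 over libraries), Nfatc3 of 38.4 (33.1 to 44.2) and Nfatc2 of 21.8 (12.4 to 26.3). By these principal transcript lengths the ranges of Nfatc3 and Nfatc2 did not overlap, whereas that of Nfatc1 spanned the range of Nfatc3. With merged exon lengths the means were 34.8 for Nfatc1, 19.6 for Nfatc3 and 13.7 for Nfatc2. The counts of Nfatc3 were fractional in 5 of 6 libraries. Nfatc1, the member whose own transcription receptor signals induce, stood at 223, 332 and 296 CPM in CD4-positive and 289, 294 and 127 CPM in CD4-negative ones (log2 0.26, SE 0.33). Without CD4-negative replicate 3 its difference was -0.03 (SE 0.20). Nfatc2 and Nfatc3 had differences of 0.14 (SE 0.29) and -0.05 (SE 0.17).

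**Figure D4:**
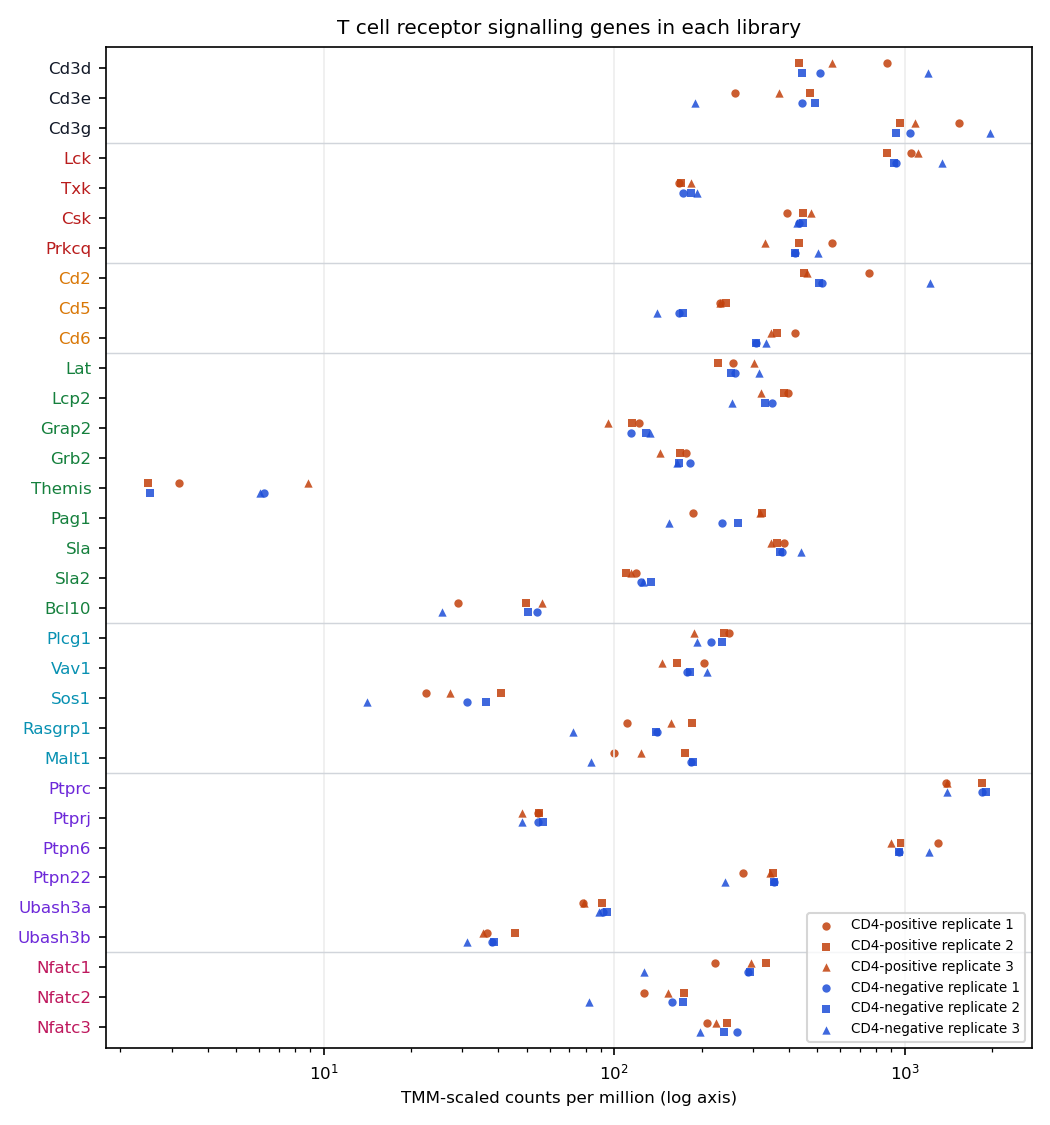
TMM-scaled CPM of the 33 genes in each of the 6 libraries on a log axis, grouped by role (orange CD4-positive, blue CD4-negative; marker shapes give the replicate). Orange and blue points overlap in all genes but Cd5, Cd6 and Sla2.

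Many of the deviations were shared by a library of each group, as they were over all tested genes. On the log2 CPM scale, as the deviation from the mean of its own group of 3, CD4-positive replicate 1 was above the mean for Cd3d (0.54), Cd2 (0.49), Cd3g (0.39), Prkcq (0.38) and Ptpn6 (0.32). CD4-negative replicate 3 was above its own mean for the same genes, by 0.89, 0.84, 0.66, 0.18 and 0.23. Both were below their means for Bcl10 (-0.58 and -0.69), Cd3e (-0.46 and -0.86), Rasgrp1 (-0.41 and -0.64) and Malt1 (-0.37 and -0.77). In total, 25 of the 33 genes deviated the same way in both libraries, 10 above and 15 below, against 68.9% of all tested genes. That count is near the share of all genes. The rest went opposite ways, such as Themis (-0.37 and 0.40).

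Across the 33 genes the deviations of these libraries, which belong to different groups, had a Pearson correlation of 0.82, and over all 12760 genes one of 0.24. The 12760 genes include weakly counted ones, since 8028 had a mean of at least 10 CPM, as did 32 of the 33. No correlation was computed among genes of like level, so these values do not show a pattern particular to the 33. Over the 9 pairs of a CD4-positive with a CD4-negative library the correlation across the 33 genes ran from -0.88 to 0.96, the highest being that of both replicate 2 libraries. The 3 deviations of a gene in a group sum to 0, so these values are not independent, and genes are not replicates. Transcript length went with the deviation: across the 33 genes Spearman's rho with length was -0.38 in CD4-positive replicate 1 and -0.46 in CD4-negative replicate 3. It was 0.43 to 0.59 in CD4-positive replicate 2 and CD4-negative replicates 1 and 2, and -0.08 in CD4-positive replicate 3. Over the 12725 tested genes with a length the values were -0.21 and -0.33 in the first pair and 0.25 to 0.38 in the next 3 libraries. Transcript GC content went with the deviation as well. Across the 33 genes its rho was 0.39 and 0.29 in the first pair, -0.45 to -0.24 in the next 3 libraries and -0.13 in CD4-positive replicate 3. Over all tested genes with a length it was 0.17 and 0.11 in the first pair and -0.25 to -0.10 in the next 3. The part of length, GC content, RNA quality or mitochondrial share in this pattern was not tested.

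**Figure D5:**
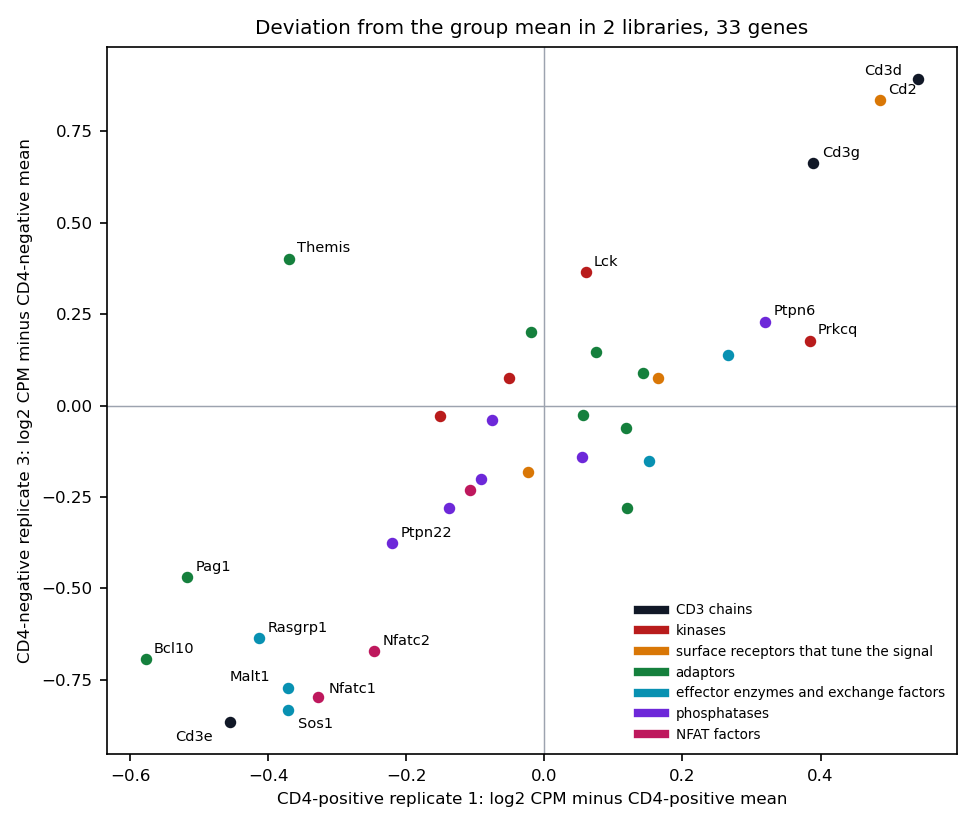
Deviation of log2 CPM from the group mean in CD4-positive replicate 1 (x axis) and CD4-negative replicate 3 (y axis) for the 33 genes, coloured by role. Cd3d, Cd2 and Cd3g lie at the upper right and Cd3e, Bcl10, Malt1 and Nfatc1 at the lower left. The quadrants of equal sign hold 25 of 33 genes, where 68.9% of all tested genes had equal signs.

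With CD4-positive replicate 1 and CD4-negative replicate 3 both left out, a choice made after the data were seen, none of the 33 genes passed edgeR's test either, while 66 of 12906 genes (0.511%) did. Cd5 then had a difference of 0.49 (SE 0.11, adjusted p = 0.202 by edgeR). The SE of Cd2 was 0.11 in that fit in place of 0.39, with a difference of -0.17. Cd5 and Pag1 had an unadjusted p under 0.05 there, as did 9.25% of all genes.

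Other genes of the pathway gave a similar count. Of 84 listed symbols, where Fyb and Fyb1 name the same gene, 82 were found and tested (Fyb1 and Carmil2 were not matched), none passed over all genes by edgeR, DESeq2 or limma-voom, and 3 had an unadjusted p under 0.05 (4.44% of all genes did). Of the 82 genes 42 had a difference above 0 and 40 below, with a median of 0.00, where 48.9% of all genes were above 0. Groups did not overlap in 6, beside 9.41% of all genes. The smallest p belonged to Rasgrp2, a calcium-driven activator of the GTPase Rap1. It stood at 79.1, 61.8 and 78.1 CPM in CD4-positive and 108, 104 and 146 CPM in CD4-negative libraries for a log2 difference of -0.71 (SE 0.19, adjusted p = 0.472 by edgeR). Its relative Rasgrp1 had a difference of 0.36, so the signs of the estimates were opposite, which was not tested as such.

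Sh2d1a, the adaptor SAP of SLAM receptors, stood at 31.2, 31.9 and 33.2 CPM in CD4-positive and 25.1, 24.1 and 20.9 CPM in CD4-negative ones, a log2 difference of 0.46 (SE 0.15, adjusted p = 0.739 by edgeR). Nck2, an adaptor to the actin machinery, lay between 16.6 and 26.4 CPM in CD4-positive and between 27.2 and 36.0 CPM in CD4-negative ones (log2 -0.52, SE 0.22). In both the groups did not overlap. Cd28, the costimulatory receptor, had overlapping groups (log2 0.41, SE 0.22). Some partners in the cascade described above were named after their values were seen. The zeta chain Cd247 had a difference of 0.19 (SE 0.20), Zap70 of 0.11 (SE 0.22) and the kinase Fyn of -0.06 (SE 0.17). The groups overlapped in all 3.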

How the data were processed

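RNA of sorted thymic NKT1 cells (RNeasy Plus Micro kit) was made into TruSeq stranded mRNA libraries and sequenced with paired-end reads on a HiSeq4000, as the labels' protocols state. STAR, Picard, RSEM and the build mm10 are named in the submitters' processing notes, without versions or roles. The counting annotation and strand setting are not stated in these sources. The authors deposited a table of estimated counts per gene, not normalised, with 1 column per library, and columns were matched to samples by library name. Counts were rounded to whole numbers. In 28 of the 33 genes they were whole in every library (within 1e-06). The others were Sla2 and Ptpn6 (fractional in 6 libraries), Nfatc3 (in 5), and Grb2 and Plcg1 (in 3 each).

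The fit used R 4.3.3 and edgeR 4.0.16: genes kept by filterByExpr, library scaling by TMM, a common dispersion of 0.0994, the 2-sided quasi-likelihood F test with robust estimation and group as the sole term, and Benjamini-Hochberg adjustment over 12760 genes at 0.05. The SE comes from the F statistic and the 95% interval from the same degrees of freedom. Levels are TMM-scaled CPM and deviations use log2 CPM with a prior count of 2. Lengths and coordinates come from GENCODE M21 (GRCm38), taking the APPRIS principal transcript. Promoter windows come from RefSeq (GRCm38.p6), where 27 of the 33 genes had an entry. Libraries of a group differed beyond sampling noise (chi-square per degree of freedom 55.6 to 400.5), and all were kept. Intervals and floors cover the spread between libraries or counting error only.

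All 33 genes were to be named, with the listed pathway genes past the test or else the 4 with the smallest p, and Cd4. Some genes are not reported here. The members and lists were chosen with earlier results of these data known. Alternatives were other scalings, DESeq2 1.42.0, limma-voom (limma 3.58.1), other filters, a replicate block, the naming scheme of the libraries as a batch term and each library left out. Of 17 alternatives 3 were added after seeing the data: sample quality weights, and leaving out both libraries with the lowest mitochondrial share or both replicate 1 libraries. The tests were first run on simulated data with the same dispersion for every gene and no deviation shared between libraries. That run therefore does not show how well the tests resolve differences in these libraries.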

Additional observations from a re-analysis of the deposited data

How the results depend on the processing

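None of the 33 genes and none of the listed pathway genes passed under any of the 17 alternatives in which they were tested (with a mean of at least 5 CPM required, 32 and 79 genes were, without Themis), and the number of the 33 with a log2 difference above 0 was 13 to 17 (14 to 17 with a library left out, 14 in the reported fit). Over all genes 27 passed in the reported fit, against 162 by DESeq2, 67 without a filter on low counts, 11 with the naming scheme of the libraries as a batch term and 0 to 44 with a library left out (0 without any of the 5 libraries other than CD4-negative replicate 3, 44 without that library). In these edgeR fits the unadjusted p was under 0.05 for 439 to 810 genes. Among the added alternatives 176 genes passed with sample quality weights, 66 without both libraries of the lowest mitochondrial share and 0 without both replicate 1 libraries (402 at an unadjusted p under 0.05). With the replicate block 0 genes passed (531 at an unadjusted p under 0.05). Deviations of same-numbered libraries over all genes correlated at -0.08, 0.34 and 0.04. The value of 0.34, of both replicate 2 libraries, was the highest of any pair across the groups. CD4-positive replicate 1 correlated best with CD4-negative replicate 3 (0.24). Immature thymocyte marker sums ranked by number alike in both groups (49.3, 18.8 and 112 CPM, and 55.8, 20.8 and 139 CPM). Deviations of a gene sum to 0 in each group, so these correlations cannot decide whether the numbers pair the libraries. The reported fit takes no pairing, and the replicate block is the alternative that does. Without CD4-negative replicate 3 the differences of 7 of the 33 genes turned from below to above 0 (Cd3d, Cd3g, Cd2, Lck, Prkcq, Lat and Themis) and of 6 from above to below (Bcl10, Plcg1, Sos1, Ptpn22, Nfatc1 and Nfatc2). With any other library left out 2 to 4 turned upward and 1 to 4 downward. The difference of Ptpn6 was -0.22 without both replicate 1 libraries. Within the naming scheme of replicate 3 no test was possible, since it holds a single library of each group. With 3 libraries per group the median SE of the 33 log2 differences was 0.21, and a count of 0 would allow up to 3 counts, or 0.0555 to 0.0783 CPM.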

Other observations

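Tnfaip3, which encodes A20, an inhibitor of NF-kappa B signalling and a member of the pathway list, was singled out after its values were seen. It stood at 386 CPM in CD4-positive replicate 1 and 630 CPM in CD4-negative replicate 1, and at 39.7 to 83.7 CPM in the other 4 libraries (log2 difference between the groups -0.48, SE 1.09, adjusted p = 0.99999 by edgeR). Both replicate 1 libraries stood apart here. That pair differs from the pair that stood apart for the CD3 chains, CD4-positive replicate 1 and CD4-negative replicate 3.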
